A study of Mus musculus with 10 samples.

Results

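The cytochrome P450 genes of families 1 to 3 were examined in liver RNA sequenced from 10 samples, 5 of wild type mice and 5 of mice with a liver knockout of Cpt1a (written Cpt1a L-/-). The genes were taken by name, as Cyp1a, Cyp1b, any Cyp2 subfamily or Cyp3a followed by a number, leaving out 1 further Cyp2c gene and pseudogene names that end in -ps and a number. That rule gave 68 of the 51911 genes in the deposited table. Subfamily 2c held 15 of them, 2d, 2j and 3a held 10 each, 2b held 7, 2a held 5, 2e and 2f held 1 each, and 9 belonged to 1a, 1b, 2g, 2r, 2s, 2t, 2u or 2w. Mice of both genotypes were of the C57BL/6 strain and had a high-fat diet for 8 weeks, so all comparisons are between genotypes on that diet. On age, sex, the way the knockout was made and whether each sample was 1 animal, nothing is given in the sources used here, and p-values therefore measure the spread between these samples, which may be technical.

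Cytochrome P450 enzymes of these families sit in the endoplasmic reticulum of hepatocytes, where they insert an oxygen atom into drugs, toxins, steroids and fatty acids with electrons passed on by P450 reductase and cytochrome b5. Each holds a heme, and their genes are classic targets of the receptors CAR (Nr1i3), PXR (Nr1i2) and AHR and of the hepatocyte factor HNF4A. In rodent liver several are expressed around the central vein, and some differ between the sexes through the pattern of growth hormone.

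Most of the 68 genes lay in tandem clusters of near copies. In the GENCODE M21 annotation of GRCm38, 16 genes of Cyp2a, 2b, 2f, 2g, 2s and 2t lay on chromosome 7 between 25802475 and 27158668. The 15 Cyp2c genes lay on chromosome 19 between 39007019 and 44029208. The 10 Cyp2d genes lay on chromosome 15 between 82370527 and 82794294, the 10 Cyp2j genes on chromosome 4 between 96027534 and 96664154, and the 10 Cyp3a genes on chromosome 5 between 137892932 and 146113287. Among 39 coding sequences compared within subfamilies, the closest pair was Cyp2a5 and Cyp2a4 at 98.4% identity, followed by Cyp2c40 and Cyp2c68 at 98.1%, Cyp2c67 and Cyp2c40 at 97.7%, and Cyp3a59 and Cyp3a25 at 97.5%.

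The promoters of 2 pairs of near copies on chromosome 7 are shown to let the copies be read against each other, since Cyp2b9, Cyp2b13 and Cyp2a4 were the 3 tested genes with the widest range between libraries. Each window runs from 250 bases before to 50 bases after the start of the gene (RefSeq, GRCm38.p6, plus strand), and capitals mark the bases at which the members of a pair differ. Cyp2b9 (chr7:26173159-26173458) and Cyp2b13 (chr7:26061245-26061544) differed at 2 of 300 bases (99.3% identity):
Cyp2b9: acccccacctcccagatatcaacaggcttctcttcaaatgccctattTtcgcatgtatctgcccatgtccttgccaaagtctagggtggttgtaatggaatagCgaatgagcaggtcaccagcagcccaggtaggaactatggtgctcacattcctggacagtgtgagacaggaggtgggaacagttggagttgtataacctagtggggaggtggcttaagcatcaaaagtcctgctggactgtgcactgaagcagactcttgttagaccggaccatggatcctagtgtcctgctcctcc
Cyp2b13: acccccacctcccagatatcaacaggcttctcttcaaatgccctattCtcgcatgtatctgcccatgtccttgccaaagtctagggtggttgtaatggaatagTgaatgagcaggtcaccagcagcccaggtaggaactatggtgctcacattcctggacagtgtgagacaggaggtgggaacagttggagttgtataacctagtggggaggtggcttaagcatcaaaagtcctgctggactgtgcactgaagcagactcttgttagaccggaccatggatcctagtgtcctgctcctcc

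Cyp2a4 (chr7:26306942-26307241) and Cyp2a5 (chr7:26835089-26835388) differed at 5 of 299 aligned bases (98.3% identity), and their windows are shifted by 1 base against each other:
Cyp2a4: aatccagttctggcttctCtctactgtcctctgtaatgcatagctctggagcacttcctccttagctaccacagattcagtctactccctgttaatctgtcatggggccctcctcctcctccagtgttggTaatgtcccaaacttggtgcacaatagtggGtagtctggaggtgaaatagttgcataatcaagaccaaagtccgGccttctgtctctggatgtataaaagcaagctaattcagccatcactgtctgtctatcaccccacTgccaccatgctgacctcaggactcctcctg
Cyp2a5: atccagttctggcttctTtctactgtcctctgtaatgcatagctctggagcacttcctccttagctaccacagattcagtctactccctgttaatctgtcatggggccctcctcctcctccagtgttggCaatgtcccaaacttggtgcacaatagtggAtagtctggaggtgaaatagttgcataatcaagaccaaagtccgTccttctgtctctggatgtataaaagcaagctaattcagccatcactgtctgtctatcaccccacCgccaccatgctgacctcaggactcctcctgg

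Windows of this kind were found for 51 of the 68 genes, 33 of them among the genes tested. Where a gene had more than 1 window, the one nearest to its annotated start was kept, so the 33 genes have 1 window each, whereas the 32851 promoters they are set against hold several for some genes. Motifs were searched as exact letters on both strands, and near copies share much of their windows. The nuclear receptor half-site AGGTCA was in 11 of 33 windows (33.3%) against 16.3% of 32851 promoters, and each of the 4 windows shown holds it once. In Cyp2b9 and Cyp2b13 it lies before the start of the gene. In Cyp2a4 and Cyp2a5 it lies after the start, on the other strand (TGACCT as printed), just past the start codon ATG. The TATA box TATAAA was in 20 of 33 (60.6%) against 13.6% of promoters, once in each of Cyp2a4 and Cyp2a5 and in neither Cyp2b9 nor Cyp2b13. An HNF4 motif, CAAAGTCCA, was in 4 of 33 (12.1%) against 0.475%, and the STAT motif TTCNNNGAA in 0 of 33 against 8.3%. These are matches of letters in a short window and no sites of binding.

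The 10 libraries held between 20599099 and 26955958 expected counts, at which 3 counts correspond to between 0.111 and 0.146 CPM, the count level after each library was brought to the same size. Cpt1a, the targeted gene and the enzyme that commits long-chain fatty acids to mitochondrial oxidation, averaged 430.1 ± 85.8 CPM over wild type and 80.04 ± 9.19 CPM over knockout libraries (SD, 5 libraries each) and fell (log2 fold change -2.43 ± 0.16 SE, edgeR adjusted p = 1.9e-05). Of 13619 genes tested, 18 passed an adjusted p of 0.05, which is 0.132%, with 0.0514% lower and 0.0808% higher in the knockout. The first principal component over all genes, 34.19% of the variance, set apart from the other 5 libraries a group made of wild type replicates 1 and 2 with knockout replicates 2, 3 and 5, so it did not follow genotype. The summed CPM of the red cell markers was highest in wild type replicates 1 and 2, at 1595 and 1605, and 493.6 to 1204 elsewhere. The summed hepatocyte markers ranged from 118500 to 130400 CPM for wild type and from 97440 to 116500 CPM for knockout, with knockout replicate 3 lowest.

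All 68 genes were in the annotation, and 9 carried a pseudogene name. No reads were counted in any library for 14 genes, namely Cyp2b19, Cyp2b23, Cyp2b26-ps, Cyp2b27-ps, Cyp2c66, Cyp2j7, Cyp2j12, Cyp2j13, Cyp2j14-ps, Cyp2j15-ps, Cyp2t4, Cyp2w1, Cyp3a16 and Cyp3a41b. A further 13 had between 2 and 115 counts over all 10 libraries and did not pass the filter on low counts. They included Cyp3a41a and Cyp3a44, female-predominant genes in mouse liver, with 6 and 4 counts in all, and Cyp2b10, the textbook target of CAR, with 115. Cyp2b10 was at 0.355, 0, 0.291, 0.571 and 1.56 CPM in wild type replicates 1 to 5 and at 0.622, 0.320, 0, 0.375 and 0.310 CPM in knockout replicates 1 to 5. The groups overlapped, with wild type replicate 5 the highest. The remaining 41 genes were tested, 2 of them pseudogenes.

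By level per transcript length (TPM, the deposited length-corrected unit), the 68 genes together made up between 0.806% and 1.55% of each library's TPM. Cyp2e1 alone, which oxidises ethanol and fatty acids around the central vein, carried 48.2% of that P450 total. Subfamily 2d carried 22.3%, 2c 11.4%, 2a 6.35%, 2f 3.93%, 3a 3.16%, 1a 2.07%, 2j 1.95% and 2b 0.455%. By summed TPM, 2e, 2d, 2c and 2a held the first 4 ranks, in that order, in all 10 libraries, and 2b was last in all 10 among the 8 subfamilies compared. The libraries differed only in whether 2f or 3a came next after 2a, which gave 2 orders in all.

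**Figure D1:**
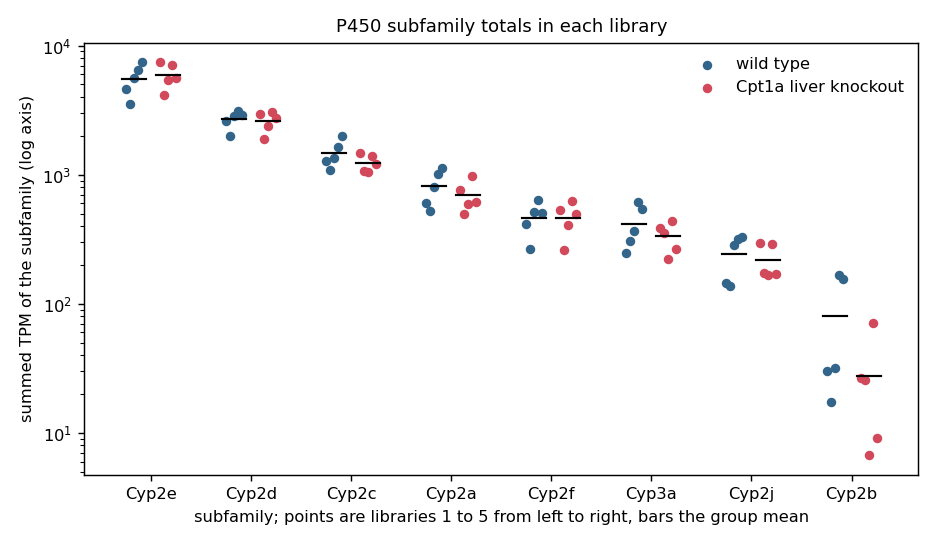
Summed TPM of 8 P450 subfamilies (log axis) in each of 5 wild type and 5 knockout libraries, as points in order of replicate number, with a bar at the group mean. All 8 subfamilies overlap between genotypes, and Cyp2b also has 2 wild type libraries, at 166.3 and 155.8 TPM, above all other libraries.

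Between genotypes, the subfamily totals in TPM differed by less than the larger SD of the groups. Cyp2d totals averaged 2698 ± 428 TPM for wild type and 2598 ± 467 TPM for knockout (SD, n = 5 each). Cyp2c totals were 1472 ± 355 and 1238 ± 189 TPM, Cyp2a totals 815 ± 258 and 691 ± 191 TPM, and Cyp3a totals 416 ± 157 and 334 ± 88.0 TPM. Cyp2f, the single gene Cyp2f2, was at 466 ± 135 and 466 ± 138 TPM, and Cyp2j at 243 ± 95.0 and 219.7 ± 68.1 TPM. In each of these subfamilies the libraries of both genotypes overlapped. In summed CPM, which is scaled by TMM factors, the means of Cyp2c (2330 ± 250 and 1871 ± 329) and of Cyp2a (1325 ± 211 and 1060 ± 237) were further apart than either SD, with a log2 ratio of -0.32 for both, and the libraries again overlapped. The subfamily 2b total averaged 80.3 ± 74.1 TPM for wild type and 27.8 ± 25.8 TPM for knockout. On the scale of summed CPM its log2 ratio of knockout to wild type was -1.46, and -0.17 without wild type replicates 4 and 5. The latter ratio still holds knockout replicate 4, the highest knockout library, at 114 CPM. The highest and lowest libraries differed 27.6-fold in summed CPM for 2b, 2.65-fold for 3a and 1.35-fold for 2d.

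None of the 41 tested P450 genes passed the adjusted test, against 0.132% of all genes tested, and none passed in DESeq2 or in any other fit run. At an unadjusted edgeR p under 0.05 there were 9 of 41 (22.0%), all with lower values in the knockout, against 4.82% of all genes in either direction. For all genes the share was 2.25% in that direction and 2.56% in the other, which held 0 of 41. DESeq2 put 11 P450 genes and limma-voom 13 under that unadjusted threshold. The share of all genes under it was not counted in those fits or with libraries left out, so these counts lack a background. The 9 were Cyp2b13, Cyp2c55, Cyp2c67, Cyp2c29, Cyp2c40, Cyp2a22, Cyp2d22, Cyp3a59 and Cyp2c50. The log2 fold change was below 0 for 32 of 41 (78.0%) against 55.3% of all genes, and the median was -0.20 for the 41 against -0.02 for all genes. The genotypes did not overlap for 0 of 41, against 1.05% of all genes in either direction and 0.529% lower in the knockout. The count of 9 became 4 without knockout replicate 3, 5 without knockout replicate 5 and 2, Cyp2c55 and Cyp2u1, without wild type replicates 4 and 5. These P450 genes share clusters, near copies and libraries, so the 41 are not independent of each other.

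**Figure D2:**
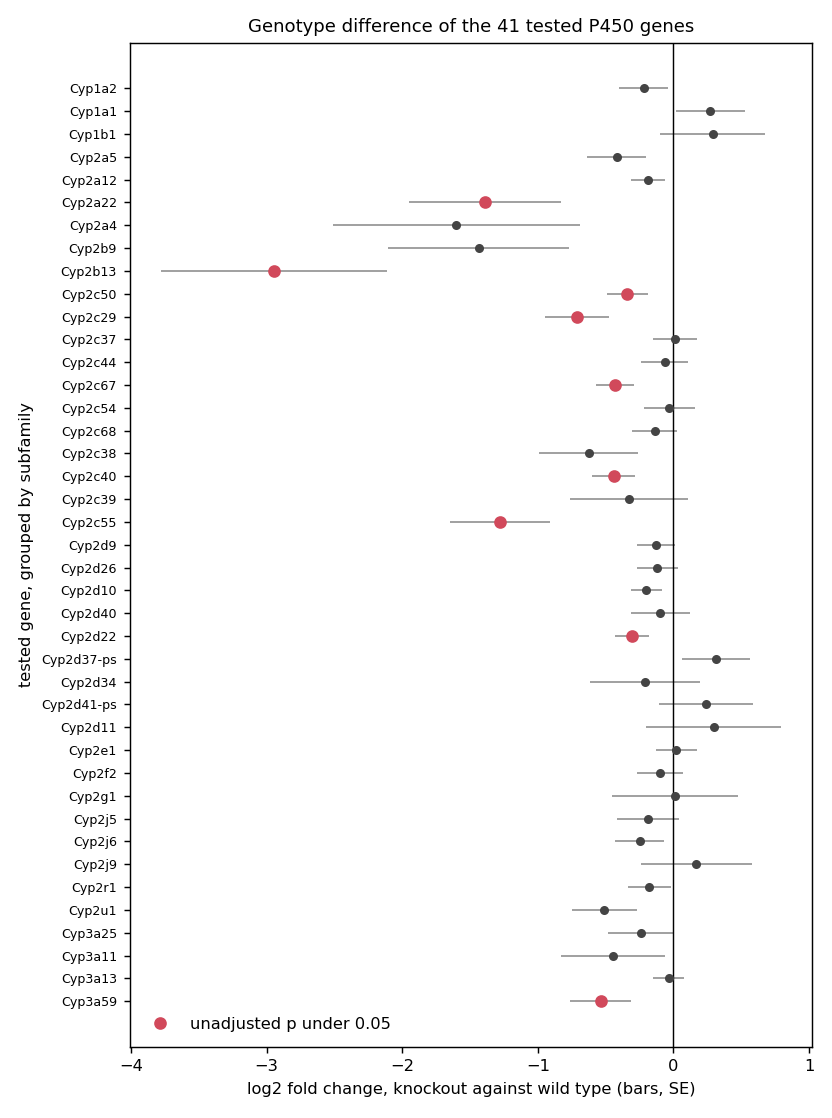
Log2 fold change of knockout against wild type with its standard error for the 41 tested P450 genes, grouped by subfamily, with red points for an unadjusted p under 0.05. Most points lie left of 0, with Cyp2b13 lowest at -2.95, and no gene passed the adjusted test.

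A pair of patterns by library ran across subfamilies. The highest 2 of 10 libraries in CPM were wild type replicates 4 and 5 for 11 of 41 genes (26.8%), against 3.49% of all genes tested. These were Cyp2b9, Cyp2b13, Cyp2a4, Cyp2a12, Cyp2a22, Cyp2c29, Cyp2c38, Cyp2c40, Cyp2j5, Cyp3a11 and Cyp3a59. Knockout replicate 3 was the lowest library for 19 of 41 genes (46.3%), against 7.22% of all genes, and it also had the largest TMM scaling factor, 1.147. By deposited TPM, which that factor does not enter, it was lowest for 11 genes and knockout replicate 2 for 9. The share of all genes lowest in these libraries was not counted in TPM, so these TPM counts lack a background. Both patterns were noticed in the data and are given as counts, without a test.

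**Figure D3:**
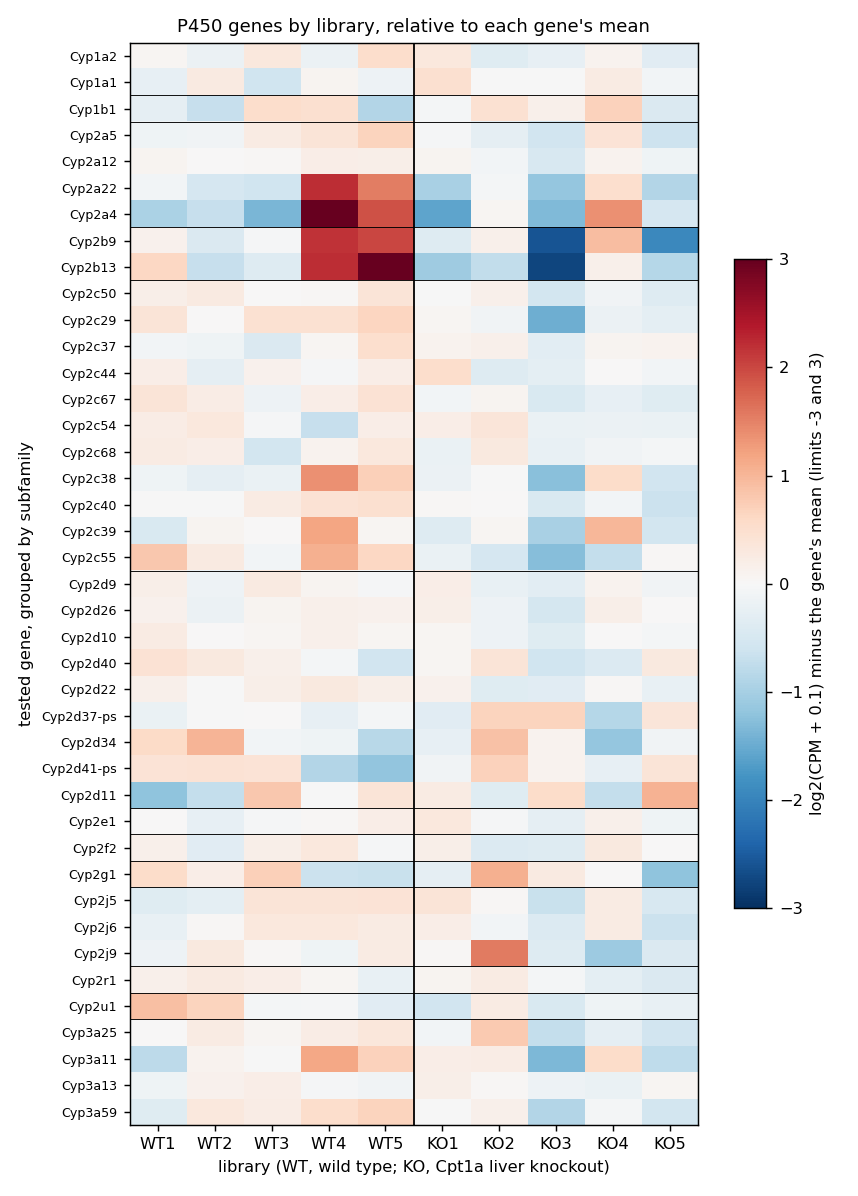
Heat map of the 41 tested P450 genes (rows, by subfamily) in the 10 libraries (columns), as log2(CPM + 0.1) minus each gene's mean, with red above and blue below the mean. The columns of wild type replicates 4 and 5 are red across Cyp2b and part of Cyp2a, Cyp2c and Cyp3a, and knockout replicate 3 is blue in most rows.

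The range over libraries differed widely between genes. The highest library was less than 2-fold above the lowest for 16 of 41 genes, between 2-fold and 5-fold for 13, and 5-fold or more for 12. The share of all genes in these classes was not counted. Some of the 12 were scarce, so counting error widens their range. The lowest library was at 0.133 CPM for Cyp2d11, 0.144 CPM for Cyp2c55 and 0.166 CPM for Cyp2a4, near the level of 3 counts. Cyp3a13 had the narrowest range, 1.31-fold, and Cyp2b13 the widest, 187-fold, although its lowest library, at 0.0722 CPM, was under the level of 3 counts. Abundant genes were found across this range, with 1.496-fold for Cyp2d9, 1.514-fold for Cyp2e1, 2.44-fold for Cyp2a5, 4.29-fold for Cyp2c29 and 5.70-fold for Cyp3a11.

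The Cyp1a genes are the classic targets of AHR, and Cyp1a2 is the constitutive liver enzyme that oxidises caffeine. Cyp1a2 was at 414, 350, 499, 354 and 569 CPM in wild type replicates 1 to 5 and at 496, 309, 334, 425 and 314 CPM in knockout replicates 1 to 5. The ranges overlapped, and the log2 fold change was -0.22 ± 0.18 (SE). Cyp1a1, the form that AHR ligands induce, was at 0.805 ± 0.203 and 0.968 ± 0.178 CPM (SD, n = 5 each), far below Cyp1a2 also per length, at 0.318 and 0.422 TPM against 255 and 235 TPM. Cyp1b1, a mainly extrahepatic enzyme, was at 0.584 ± 0.303 and 0.722 ± 0.244 CPM.

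Cyp2a5, the coumarin hydroxylase of mouse liver, was at 569.5, 579.6, 742, 816 and 996 CPM in wild type replicates 1 to 5 and at 605, 518, 416, 821 and 408 CPM in knockout replicates 1 to 5. Only 3 knockout libraries lay below the lowest wild type library, and the log2 fold change came to -0.42 ± 0.22 (SE, adjusted p = 1.0 in edgeR). Its near copy Cyp2a4, a steroid hydroxylase that is female-predominant in mice, was at 0.311, 0.394, 0.208, 6.75 and 2.90 CPM in wild type replicates 1 to 5 and at 0.166, 0.731, 0.217, 1.95 and 0.465 CPM in knockout replicates 1 to 5. Wild type replicates 4 and 5 and knockout replicate 4 stood above the other 7 libraries, which all lay under 1 CPM. The log2 fold change was -1.60 ± 0.91 over all libraries and 1.23 without wild type replicates 4 and 5, so its direction depended on which of the high libraries were kept. The latter value still holds knockout replicate 4, the highest knockout library. With that library also left out Cyp2a4 did not pass the filter on low counts.

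Because Cyp2a4 and Cyp2a5 share most of their sequence, the split of reads between them is uncertain. Both had counts that were not whole in 10 of 10 libraries, and the sum of both counts was whole in all 10 (within 0.025), as when whole reads are divided between a pair. Cyp2a4 received between 0.0274% and 0.821% of the pair's counts, the latter in wild type replicate 4, followed by 0.290% in wild type replicate 5 and 0.237% in knockout replicate 4. The summed CPM of both genes, which does not depend on the split, ran from 569.9 to 998.9 for wild type and from 408 to 823 for knockout. How much of the Cyp2a4 pattern comes from the split was not tested.

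Cyp2a12, a testosterone hydroxylase, averaged 573 ± 33.4 CPM for wild type and 502 ± 75.6 CPM for knockout. Its near copy Cyp2a22 (97.0% coding identity) was at 4.49, 3.32, 3.12, 22.5 and 14.0 CPM in wild type replicates 1 to 5 and at 2.36, 4.57, 2.06, 6.74 and 2.52 CPM in knockout replicates 1 to 5. The same 3 libraries as for Cyp2a4 were the highest. Its log2 fold change of -1.39 ± 0.56 (SE, adjusted p = 0.934 in edgeR) became 0.01 without wild type replicates 4 and 5. With knockout replicate 4 also left out it was -0.34. Cyp2a22 took 3.55%, 2.28% and 1.16% of the pair's counts in those 3 libraries and between 0.420% and 0.898% in the others, and the pair's sum was whole in 9 of 9 libraries in which both counts were not.

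Cyp2b genes encode enzymes that are induced through CAR, and Cyp2b9 and Cyp2b13 are female-predominant in mouse liver. Cyp2b9 (chromosome 7, 26173411 to 26210661) was at 65.2, 44.3, 58.5, 267.5 and 240.2 CPM in wild type replicates 1 to 5 and at 45.7, 66.0, 9.85, 113 and 15.5 CPM in knockout replicates 1 to 5. Every other library lay below wild type replicates 4 and 5, knockout replicate 4 came next, and knockout replicates 3 and 5 were the only libraries under 40 CPM. Means were 135 ± 109 and 49.96 ± 41.9 CPM (SD), with a log2 fold change of -1.44 ± 0.67 (SE, adjusted p = 1.0 in edgeR). Without wild type replicates 4 and 5 it was -0.15, and with knockout replicate 4 also left out it was -0.70.

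Cyp2b13 (chromosome 7, 26061497 to 26096197) was at 1.69, 0.619, 0.791, 5.32 and 13.5 CPM in wild type replicates 1 to 5 and at 0.456, 0.594, 0.0722, 1.199 and 0.542 CPM in knockout replicates 1 to 5. The lowest wild type library lay above 4 of 5 knockout libraries, while knockout replicate 4 lay among the wild type values. It had the lowest log2 fold change of the P450 genes tested, -2.95 ± 0.84 (SE, edgeR adjusted p = 0.434). That value was -0.85 without wild type replicates 4 and 5, and -1.32 with knockout replicate 4 also left out. The coding sequences of Cyp2b13 and Cyp2b9 were 92.7% identical, and both counts were not whole in 1 library, so little sharing of reads between them was recorded.

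**Figure D4:**
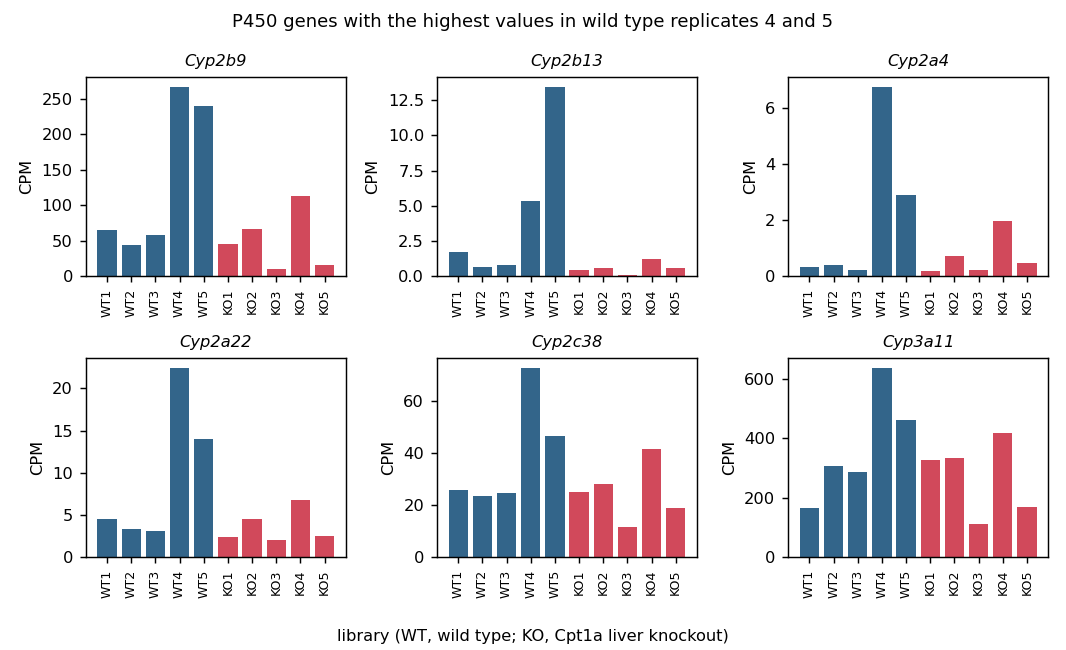
CPM of 6 P450 genes in each library (bars; blue wild type, red knockout), chosen after their values were seen among those highest in wild type replicates 4 and 5. For Cyp2b9 these 2 libraries stand at 267.5 and 240.2 CPM and knockout replicate 4 at 113 CPM, and knockout replicate 4 is the third highest in every panel except Cyp2b13.

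Markers that are no P450 genes moved with the same libraries. The summed CPM of 15 male-predominant mouse liver genes was 11640, 11750, 8311, 4539 and 4642 in wild type replicates 1 to 5 and 7361, 10810, 8582, 5590 and 6338 in knockout replicates 1 to 5. The 3 lowest sums were in the libraries with the most Cyp2b9, namely wild type replicates 4 and 5 and knockout replicate 4. Of 15 female-predominant genes 8 were tested, and the list summed to 278, 258 and 287 CPM in those 3 libraries, against 161 to 222 CPM elsewhere. Xist, the transcript of the inactive X chromosome, was at or under 0.357 CPM in all 10 libraries. The Y chromosome genes Ddx3y, Eif2s3y, Uty and Kdm5d were each at or above 3.51 CPM in all 10 libraries, as in male tissue. The part of the differences in the male- and female-predominant sums in the P450 values was not tested.

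The Cyp2c enzymes turn arachidonic acid into epoxides and hydroxy acids and oxidise many drugs. Of 11 tested genes 10 had a log2 fold change below 0, the median was -0.34, and 5 had an unadjusted p under 0.05 with lower values in the knockout. Over all genes tested, 55.3% were below 0, the median was -0.02, and 2.25% were lower at that p. Cyp2c29, an abundant epoxygenase and CAR target, was at 493, 378, 514, 519 and 583 CPM in wild type replicates 1 to 5 and at 392, 349, 136, 333 and 307 CPM in knockout replicates 1 to 5. Knockout replicate 1 lay above wild type replicate 2, and the other 4 knockout libraries lay below all wild type libraries. Over all libraries its log2 fold change was -0.71 ± 0.23 (SE, adjusted p = 0.619 in edgeR), and it was -0.53 without knockout replicate 3, the lowest library.

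Cyp2c55, a CAR- and PXR-inducible enzyme that makes hydroxy acids from arachidonic acid, was scarce. It was at 0.933, 0.619, 0.458, 1.14 and 0.813 CPM in wild type replicates 1 to 5 and at 0.414, 0.320, 0.144, 0.262 and 0.503 CPM in knockout replicates 1 to 5. Only knockout replicate 5 lay above the lowest wild type library. The log2 fold change of Cyp2c55 was -1.28 ± 0.37 (SE, adjusted p = 0.454 in edgeR), and it was -1.02 without wild type replicates 4 and 5.

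Cyp2c67 was at 239.8, 215, 165, 210.2 and 248 CPM in wild type replicates 1 to 5 and at 173, 194, 135, 156 and 144 CPM in knockout replicates 1 to 5. Wild type replicate 3 lay among the knockout libraries and the other 4 lay above all of them (log2 fold change -0.43 ± 0.14, edgeR adjusted p = 0.613). Cyp2c40, which makes a hydroxy acid from arachidonic acid, was at 59.6 ± 9.81 and 43.9 ± 8.95 CPM (-0.44 ± 0.16, adjusted p = 0.790). Cyp2c50 was at 753 ± 84.3 and 594 ± 118 CPM (-0.34 ± 0.15, adjusted p = 1.0). Cyp2c67, Cyp2c40 and Cyp2c68 are near copies of each other, as are Cyp2c50, Cyp2c37 (96.1% identity to Cyp2c50) and Cyp2c54 (95.2%), so the split of reads within each group is uncertain. Of these copies Cyp2c37 was at 247 ± 61.3 and 249.6 ± 30.5 CPM and Cyp2c54 at 185 ± 44.8 and 181 ± 34.5 CPM. Cyp2c68 was at 113 ± 23.7 and 103 ± 16.2 CPM.

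The other Cyp2c genes named here were chosen after their values were seen. Cyp2c38 was at 26.0, 23.5, 24.5, 72.9 and 46.5 CPM in wild type replicates 1 to 5 and at 25.2, 28.3, 11.7, 41.5 and 18.9 CPM in knockout replicates 1 to 5. The 3 highest libraries were again wild type replicates 4 and 5 and knockout replicate 4. Its near copy Cyp2c39 (94.2% coding identity), a retinoic acid hydroxylase, was near 1 CPM, at 1.18 ± 0.633 and 0.949 ± 0.615, and Cyp2c44, an epoxygenase, was at 219 ± 28.4 and 209 ± 57.0 CPM.

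The Cyp2d subfamily, whose human member oxidises many prescribed drugs, had the narrowest range of summed CPM among the subfamilies compared. Cyp2d9, a testosterone hydroxylase that is male-predominant in mice, was at 1639, 1297, 1740, 1525 and 1407 CPM in wild type replicates 1 to 5 and at 1658, 1242, 1163, 1561 and 1344 CPM in knockout replicates 1 to 5. The groups overlapped, and wild type replicates 4 and 5 lay in the middle of the range (log2 fold change -0.13 ± 0.14). Cyp2d22 was at 200.4, 178, 205, 221 and 203 CPM in wild type replicates 1 to 5 and at 197, 139, 142, 185 and 153 CPM in knockout replicates 1 to 5. All wild type libraries lay above 3 of the knockout libraries (log2 fold change -0.30 ± 0.13, adjusted p = 0.965 in edgeR). Cyp2d10 was at 796 ± 52.6 and 693 ± 74.1 CPM and Cyp2d26 at 993 ± 88.7 and 915 ± 172 CPM. The pseudogene Cyp2d37-ps averaged 274 ± 22.3 CPM over wild type libraries and ranged more widely in knockout libraries, from 161 CPM in replicate 4 to 466 CPM in replicate 3 (log2 fold change 0.32 ± 0.25). Cyp2d11 (0.444 and 0.555 CPM) and Cyp2d41-ps (2.05 and 2.39 CPM) were scarce. Cyp2d11 and Cyp2d10 (94.7% coding identity) both had counts that were not whole in 10 of 10 libraries, as had Cyp2d9, Cyp2d22 and Cyp2d37-ps. The split of reads that gave the values of these genes is therefore uncertain.

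Cyp2e1 was at 8679, 7352, 8489, 8800 and 9964 CPM in wild type replicates 1 to 5 and at 10800, 8464, 7138, 9546 and 7965 CPM in knockout replicates 1 to 5. The groups overlapped fully, with a log2 fold change of 0.02 ± 0.15 (SE). Cyp2f2, which activates naphthalene in lung club cells and is also expressed in hepatocytes around the portal vein, was at 800, 576, 818, 905 and 712 CPM in wild type replicates 1 to 5 and at 825, 549, 556.5, 888 and 734 CPM in knockout replicates 1 to 5. Of 7 markers of club cells and lung, Scgb1a1, Scgb3a2, Sftpb and Sftpc were at 0 in all libraries. Sftpa1, the only 1 tested, was at 0.584 ± 0.227 and 0.663 ± 0.289 CPM. The list summed to between 0.671 and 1.75 CPM for wild type and between 0.861 and 1.46 CPM for knockout. An annotated antisense gene, Gm15883, overlaps Cyp2f2 with 612 counts in all, and since no source used here says whether strand was kept, reads of this pair cannot be told apart.

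Cyp2g1, an enzyme of the olfactory mucosa, was at 0.751 ± 0.356 and 0.756 ± 0.474 CPM. Cyp2j5, an arachidonic acid epoxygenase of kidney and liver, was at 324, 341, 545, 547 and 556 CPM in wild type replicates 1 to 5 and at 544.5, 426, 265.5, 496 and 300.4 CPM in knockout replicates 1 to 5. Wild type replicates 1 and 2 lay with the lower knockout libraries and the other 3 wild type libraries were the highest 3 of all (log2 fold change -0.19 ± 0.23, and 0.02 without wild type replicates 4 and 5). Cyp2j6 was at 66.3 ± 10.2 and 55.8 ± 14.3 CPM. Cyp2j9 averaged 4.72 ± 0.691 CPM for wild type and 5.33 ± 4.56 CPM for knockout, where replicate 2 alone reached 13.3 CPM.

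Cyp2r1, a vitamin D hydroxylase, was at 7.75 ± 0.983 and 6.85 ± 1.31 CPM. Cyp2u1, a hydroxylase of long-chain fatty acids, was at 56.3, 47.4, 28.6, 29.0 and 23.8 CPM in wild type replicates 1 to 5 and at 20.2, 35.2, 21.7, 27.3 and 25.6 CPM in knockout replicates 1 to 5. Wild type replicates 1 and 2 were the highest and the other 3 wild type libraries lay among the knockout libraries. Its log2 fold change was -0.51 ± 0.24 (SE, adjusted p = 1.0 in edgeR), -0.06 without wild type replicates 1 and 2 and -0.76 without wild type replicates 4 and 5. Cyp2s1 had 35 counts in all 10 libraries and was not tested.

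Cyp3a11, the main mouse target of PXR and an oxidase of drugs and bile acids, was at 165, 305, 285, 636 and 459.9 CPM in wild type replicates 1 to 5 and at 327, 335, 112, 417 and 168 CPM in knockout replicates 1 to 5. It was named after its values were seen. The highest were wild type replicates 4 and 5, wild type replicate 1 lay among the lowest, and the log2 fold change was -0.45 ± 0.38. Cyp3a25 was at 343, 407, 355, 399 and 432 CPM in wild type replicates 1 to 5 and at 325, 588, 208, 285 and 232 CPM in knockout replicates 1 to 5. All wild type libraries lay above 4 knockout libraries and below knockout replicate 2 (log2 fold change -0.24 ± 0.24). Its near copy Cyp3a59 was at 12.6 ± 3.14 and 8.70 ± 2.44 CPM (log2 fold change -0.54 ± 0.22, edgeR adjusted p = 0.991). The sum of both counts was whole in 10 of 10 libraries, as for Cyp2a4 and Cyp2a5. Cyp3a13, which lies apart from the other Cyp3a genes, was at 137.5 ± 14.0 and 134 ± 14.0 CPM.

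The other genes of the P450 system were taken from 20 lists holding 306 genes that are no members, of which 268 were tested. None passed the adjusted test in edgeR, where 25 of 268 (9.33%) were at an unadjusted p under 0.05 against 4.82% of all genes. In DESeq2 3 passed (1.12%), Cebpb, Meg3 and Gstp2, against 0.683% of all genes. Of 7 tested electron partners, 5 had a log2 fold change below 0 (median -0.10). Por, the P450 reductase, was at 296, 218, 370.0, 289 and 362 CPM in wild type replicates 1 to 5 and at 371, 216, 310.0, 361 and 341 CPM in knockout replicates 1 to 5, with full overlap. Cyb5a, the microsomal cytochrome b5, had a log2 fold change of -0.14 ± 0.22. Of 15 genes of heme synthesis and breakdown, 5 were below 0 (median 0.04). Alas1, the first and rate-limiting enzyme of heme synthesis, was at 282.5, 313, 331, 394 and 407 CPM in wild type replicates 1 to 5 and at 614.5, 375, 624, 614 and 429 CPM in knockout replicates 1 to 5. Knockout replicate 2 lay within the wild type range and the other 4 above it (log2 fold change 0.62 ± 0.17, adjusted p = 0.405 in edgeR).

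Of 36 tested regulators, 17 had a log2 fold change below 0 (median 0.01). The CAR gene Nr1i3 had 0.33 ± 0.22, the PXR gene Nr1i2 0.01 ± 0.10, Ahr -0.29 ± 0.17 and Hnf4a -0.08 ± 0.13. Cebpb, a transcription factor of the acute-phase response, was at 16.3, 20.1, 14.2, 14.8 and 11.5 CPM in wild type replicates 1 to 5 and at 19.7, 59.7, 52.7, 53.3 and 30.0 CPM in knockout replicates 1 to 5. Knockout replicate 1 lay within the wild type range and the other 4 above it (log2 fold change 1.49 ± 0.27, edgeR adjusted p = 0.0668, DESeq2 adjusted p = 7.54e-05). Other targets of CAR and PXR had a median of -0.09 over 17 tested genes, with 12 below 0, and those of AHR -0.07 over 6, with 4 below 0. Pericentral genes had a median of -0.10 (16 of 25 below 0) and periportal genes -0.15 (14 of 20 below 0), beside 55.3% and a median of -0.02 for all genes.

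Liver samples hold several cell types, and fewer hepatocytes cannot be told apart from less P450 RNA per hepatocyte. The hepatocyte markers had a median log2 fold change of -0.18, with 13 of 14 below 0. Those of endothelial cells had -0.13 (15 of 15 below 0), of stellate cells and fibroblasts -0.28 (14 of 15) and of macrophages -0.02 (10 of 15). Those of cholangiocytes had -0.45 (11 of 13), of neutrophils -0.45 (9 of 9), of lymphocytes -0.13 (9 of 11), of red cells -0.25 (5 of 5) and of adipocytes -0.18 (3 of 5). None of these markers passed the adjusted test, and their part in the P450 values was not tested. Conjugating and other oxidising enzymes had a median of -0.08 (14 of 23 below 0).

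In the authors' deposited table, 11 of the 68 P450 genes had a p-value under 0.05, all with a fold change below 0. Over the whole table it was 806 of 51911 genes, and both totals include genes without reads. How many of the 806 were below 0 was not counted. Cyp2c55 had a log2 fold change of -0.50 (p = 0.00247) in the authors' deposited table, followed by Cyp2c29 at -0.47 (p = 0.00331) and Cyp2c67 at -0.36 (p = 0.00361). Cyp2b13 was at -0.28 (p = 0.00985) in the authors' deposited table. These fold changes are closer to 0 than those of edgeR, which gave -1.28 for Cyp2c55 and -2.95 for Cyp2b13. The authors' comparison carries the name of DESeq2, but its settings are not stated, so sizes cannot be compared between both sources. Its p-values equalled the unadjusted p of DESeq2 as run here for Cyp2c67 (0.00361) and Cyp3a59 (0.0262). For Cyp2b13 they differed, at 0.00985 for the authors and 0.00159 in DESeq2 as run here. The 11 in the authors' deposited table were the 9 genes named above together with Cyp2c69 and Cyp2u1.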

How the data were processed

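Liver RNA of 10 samples was analysed, 5 per genotype, grouped by the genotype label, with replicate numbers from the titles. The tools were fastp, HISAT and RSEM with the build GRCm38.p5, per the submitters' processing notes, with no versions or settings given in the sources used here. The authors deposited expected (estimated) counts and TPM values per gene and library, and a comparison of their own that holds log2 fold changes and p-values, and whether those p-values are adjusted is not stated. Before testing, the deposited expected counts, 7.68% of which were fractional, were rounded to whole numbers. A further 5 rows without a gene were left out, and 27 symbols turned into dates were handled by gene identifier.

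Genes were filtered with filterByExpr, scaled by TMM and tested with the quasi-likelihood F-test of edgeR 4.0.16 in R 4.3.3 over 13619 genes with Benjamini-Hochberg adjustment, at a threshold of 0.05. CPM values are TMM-scaled, values are mean ± SD, and log2 fold changes set knockout over wild type. SDs and SEs hold the spread between libraries, while the level of 3 counts covers counting error only. Subfamily totals are sums without a test. All pairs of libraries differed by more than counting noise, with a chi-square of at least 27.4 per degree of freedom. Alternatives were RLE and upper-quartile factors, other filters, DESeq2 (1.42.0), limma-voom (limma 3.58.1), the replicate number as a block, and leaving out libraries.

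The P450 genes, the 20 lists and the tests were chosen with earlier results of these data known. P450 genes were named by rule, taking in each subfamily the highest mean TPM and the smallest edgeR p, the 6 largest log2 fold changes each way, and every unadjusted p under 0.05, which gave 29. Cyp2a12, Cyp2c37, Cyp2c54, Cyp2c68, Cyp2d10, Cyp2d26, Cyp3a13 and Cyp2b10 were added after their values were seen. Genes of the other lists are named only where a result turns on them. Coordinates are from GENCODE M21 and promoter windows from RefSeq.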

Additional observations from a re-analysis of the deposited data

Results flagged for a closer look

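Among 68 groups of 5 libraries checked for 1 library far from the rest, 1 stood out, and chance picks out about 1 in 20 such groups. Cyp2j9 in knockout replicate 2 was at 13.33 CPM, with the nearest other knockout library at 4.60 CPM. That gap was 0.775 of the group's whole range, above the critical value of 0.71 for 5 libraries. Without knockout replicate 2 the log2 fold change of Cyp2j9 was -0.50, against 0.17 with it.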

How the results depend on the processing

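No P450 gene passed the adjusted test under any of the 20 other settings, where the smallest adjusted p of a P450 gene was 0.153. Over 699 pairs of a gene and a setting, 667 kept their direction and 32, in 12 genes, did not. The count of P450 genes at an unadjusted p under 0.05, 9 in the fit reported, ran from 4 to 13 when 1 library was left out and was 2 without wild type replicates 4 and 5, with or without knockout replicate 4 also left out. It was 11 in DESeq2 and 13 in limma-voom. The share of all genes at that p was counted only in the fit reported, so a change in the count may follow the whole table. Listed other genes passing the adjusted test were 0 in that fit, 3 in DESeq2, and 0 to 1 with 1 library left out (Serpina12 without wild type replicate 5, Cebpb without knockout replicate 1). Both settings without wild type replicates 4 and 5 gave 2, Serpina12 and Moxd1. The settings that left out 2 or 3 libraries were chosen after seeing the data.

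Reversed log2 fold changes without wild type replicates 4 and 5 were 0.009 for Cyp2a22, 1.23 for Cyp2a4, 0.016 for Cyp2j5, -0.21 for Cyp2d41-ps and -0.40 for Cyp2g1. With knockout replicate 4 also left out they were -0.11 for Cyp2d41-ps, -0.36 for Cyp2g1 and 0.025 for Hnf4a, and Cyp2a4 did not pass the filter. Without wild type replicates 1 and 2 they were -0.14 for Cyp2d11, -0.044 for Cyp2e1, -0.085 for Por and 0.23 for Cyb5a. In limma-voom they were -0.015 for Cyp2e1, -0.037 for Cyp2g1 and -0.35 for Cyp2j9. With 1 library, or those 3 together, left out, values ran from -0.026 to 0.647 for Cyp2d11, -0.114 to 0.374 for Cyp2d41-ps, -0.066 to 0.087 for Cyp2e1, -0.377 to 0.245 for Cyp2g1, -0.502 to 0.390 for Cyp2j9, -0.039 to 0.056 for Nr1i2, -0.139 to 0.025 for Hnf4a, -0.043 to 0.171 for Por and -0.299 to 0.005 for Cyb5a. The causes were not tested.

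Not every pair of same-numbered libraries deviated together (correlations -0.409, 0.387, 0.002, 0.426 and -0.185). So few pairs cannot settle whether the numbers pair the samples, and no source used here says so. With the replicate block, 11 P450 genes had an unadjusted p under 0.05, 1 listed gene, Apoa4, passed the adjusted test, and the reversed values were -0.063 for Cyp2g1 and -0.125 for Cyp2j9.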
